A study of Locusta migratoria with 12 samples.

Results

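miR-33-5p was followed in the fat body of adult female migratory locusts (Locusta migratoria) on days 0, 2, 4 and 6 of adult life, counted from eclosion (the final moult). Each age had 3 small RNA libraries. The labels give no treatment or genotype. They list 3 samples per age without saying whether these were separate animals, pools or repeat preparations. The p-values therefore rest on a spread between libraries that may be technical. The fat body is the insect organ that stores lipid and glycogen and, in the adult female, makes yolk proteins. In the bulk tissue, fewer cells of a type and less miRNA per cell cannot be told apart.

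Among the 26711 mature miRNA names of the deposited count table, 22 were miR-33 names of arthropods on the 5p arm or with no arm given, or the limpet name lgi-miR-33-5p (Lottia gigantea). The name with the highest total over the 12 libraries was lgi-miR-33-5p, with 6487 counts, and its counts are given below as miR-33-5p. None of the 14 locust names in the table was a miR-33. The locust's own miR-33 sequence is not given here, and the counts are of reads that matched names of other species.

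miRNAs are short RNAs that guide silencing proteins to messenger RNAs, chiefly through the bases near their 5′ end, and lower their translation and stability. miR-33 lies within an intron of a gene for a sterol regulatory element binding protein (SREBP), a transcription factor that switches on lipid synthesis, in vertebrates and in Drosophila. In mammals its reported targets are genes of cholesterol export and fatty acid oxidation, and in Drosophila it has been tied to fat storage. Whether it has these roles in the locust was not measured here.

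The libraries held between 383840 counts (day 0 replicate 1) and 2342997 counts (day 2 replicate 1) after repeated rows were joined into 101 groups, called miRNAs here, of which 95 passed the filter on low counts. Levels are given as normalised CPM (each library's counts brought to the same depth, with TMM factors for its composition). Day 0 replicate 1 stood apart from its age, with 16 miRNAs over 4-fold below and 14 over 4-fold above both other day 0 libraries. In the other 11 libraries the same counts were at most 4 and 2. miR-8-3p, which is abundant in insect fat body, was the most abundant miRNA in 11 of the 12 libraries. No row of the nervous system miRNA miR-124 passed the filter.

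miR-33-5p was among the less abundant miRNAs of the newly eclosed adult and stood higher on days 2 and 4. On day 0 it stood at 73.6, 107 and 95.0 CPM in replicates 1, 2 and 3. On day 2 it stood at 373, 298 and 369 CPM, and on day 4 at 663, 476 and 520.4 CPM. On day 6 it stood at 951 and 929 CPM in replicates 1 and 2 and at 64.7 CPM in replicate 3.

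The 3 libraries of day 2 were all above the 3 of day 0, and the 3 of day 4 all above those of day 2. Day 6 divided. Replicates 1 and 2 were above every library of the earlier ages, and replicate 3 was below every other library, the day 0 libraries included. The mean level was 91.9 ± 17.0 CPM on day 0, 347 ± 42.3 CPM on day 2, 553 ± 97.6 CPM on day 4 and 648 ± 505 CPM on day 6 (SD, n = 3 each). Among the 95 tested miRNAs, its rank by abundance was 54 to 63 on day 0, 42 or 43 on day 2, 35 to 37 on day 4, and 33, 33 and 59 on day 6.

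**Figure D1:**
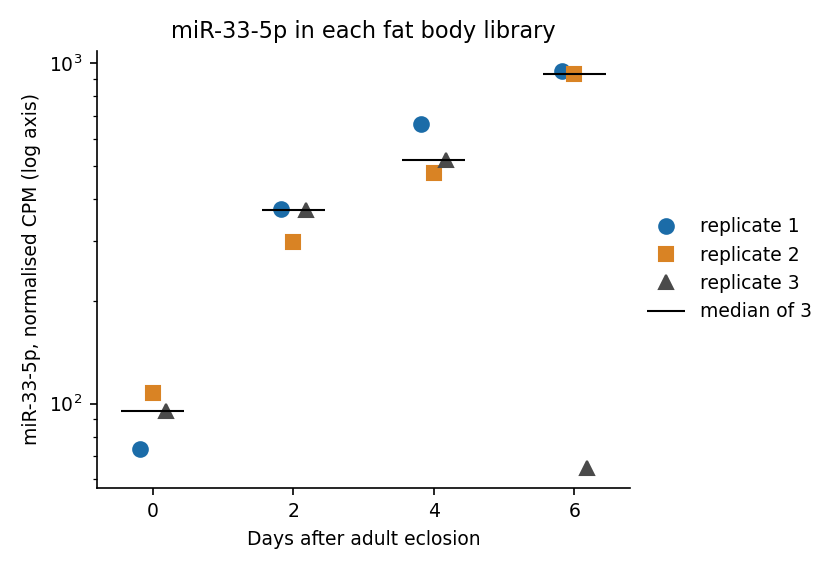
Normalised CPM of miR-33-5p (log axis) in each library against days after eclosion; symbols mark the replicate number and the bar is the median of 3 libraries. Days 0, 2 and 4 form separate steps at 73.6 to 107, 298 to 373 and 476 to 663 CPM, while day 6 holds 2 libraries at 929 and 951 CPM and 1 at 64.7 CPM.

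Counting error was small beside these steps. miR-33-5p had 80 counts among 1466326 in day 6 replicate 3, or 54.6 CPM before TMM scaling with a 95% Wilson interval of 43.8 to 67.9. The intervals were 723 to 805 CPM in day 6 replicate 1 and 806 to 953 in replicate 2. The lowest count was 34, in day 0 replicate 1, at 88.6 CPM with an interval of 63.4 to 124. This overlapped the interval of day 6 replicate 3, so the counts do not settle which of these libraries was lower. Reads without molecular identifiers are not independent molecules, so the intervals cover counting error only.

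Of the 22 names, 10 held counts and 12 held 0 counts in every library. The 12 empty names were all those of Drosophila species, dme-miR-33-5p among them. The 9 arthropod names with counts fell into a higher and a lower level. The names of the honey bee (ame-miR-33), the flour beetle (tca-miR-33-5p) and the wasp Nasonia (nvi-miR-33) held totals of 6073, 6071 and 6069 counts. The names of mosquitoes (aae-miR-33 and cqu-miR-33), Lepidoptera (hme-miR-33, bmo-miR-33-5p and mse-miR-33) and the water flea (dpu-miR-33) held 5894 to 5906 counts. Rows of different species mostly held nearly the same counts, so they are taken as the same reads counted again and not as independent measurements. Over the whole table, 44 of 93 miR-33 names held counts, and pmi-miR-33-5p of a sea star matched lgi-miR-33-5p exactly in every library.

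The counts of the honey bee name, as a share of the lgi-miR-33-5p counts, were higher at the later ages. They came to 90.0% to 96.2% in the 9 later libraries, and to 88.2%, 81.9% and 75.6% in day 0 replicates 1, 2 and 3. The groups did not overlap for this name, but its share in day 0 replicate 1 rests on 30 counts against 34. Of the names at this level, ssa-miR-33a-5p and oan-miR-33-5p held 43 counts in that library, or 126%, and the others 30 or 31. For those with 43 counts the ages overlapped. The difference, noticed in these data, was not tested. The hawkmoth name (mse-miR-33) held 87.5% to 94.1% at the later ages, and 71.0% and 65.3% in day 0 replicates 2 and 3. In day 0 replicate 1 it held 44 counts, against 34 counts of lgi-miR-33-5p, so that there the moth name was the higher. Some miRNAs with names of Lepidoptera only also held counts in this library and 0 in the other 11. They were miR-3338-3p (547 counts), miR-2766-3p (399), miR-308-3p (294) and miR-2763 (176). A flour beetle name, miR-3477-5p, held 159 counts in this library and at most 3 in any other. These miRNAs were singled out after their values were seen, and their part in the miR-33 counts was not tested.

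**Figure D2:**
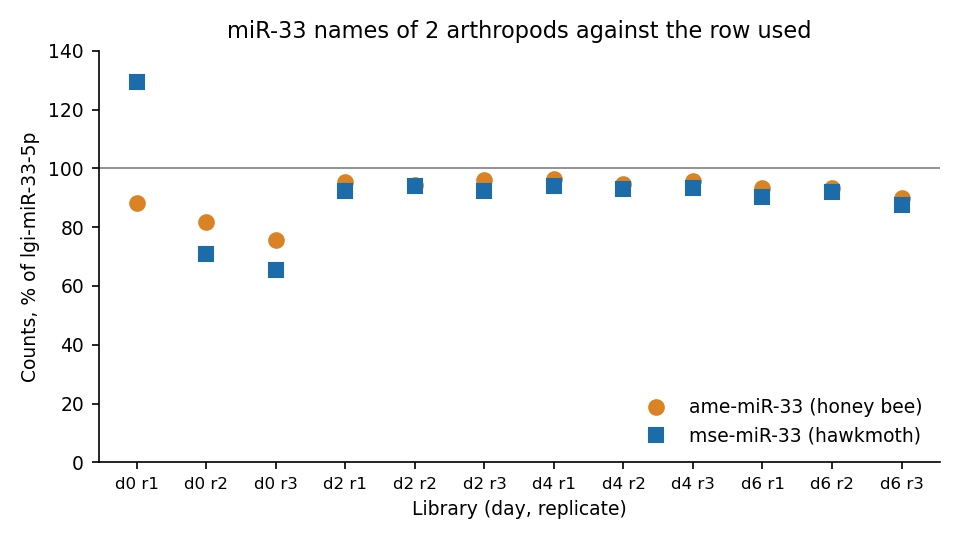
Counts under the miR-33 names of the honey bee and the hawkmoth as a percentage of the counts under lgi-miR-33-5p, in each of the 12 libraries (d, day; r, replicate). The line at 100% marks equal counts. The honey bee name held 90.0% to 96.2% at the later ages and 75.6% to 88.2% on day 0, and the hawkmoth name stood above the line in day 0 replicate 1 alone.

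No counts were found for the other arm. All 26 names of the 3p arm, of any species, held 0 counts in the 12 libraries. A count of 0 allows up to 3 counts, which is 8.82% of the 5p counts in day 0 replicate 1, 3.75% in day 6 replicate 3 and at most 1.41% in the other 10 libraries. These limits cover counting error only, and apply to the names listed, since a locust 3p sequence that matches none of them would not be counted.

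A minor row, pma-miR-33a of the lamprey, was kept apart as miR-33a and held 260 counts in all. Its counts were 0, 8 and 19 on day 0, 18, 4 and 11 on day 2, 49, 18 and 27 on day 4, and 80, 21 and 5 on day 6, in the order of the replicates. It held 8.92% or less of the miR-33-5p counts in every library. Its log2 change at day 6 against day 0 was 2.75 (SE 0.88; edgeR adjusted p = 0.027). In day 6 replicate 3, with 4.04 CPM, it lay within the day 0 range of 0 to 8.47 CPM. It may share reads with miR-33-5p, so it is no independent support.

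The earliest comparison was that of day 2 with day 0. Day 2 libraries averaged 347 ± 42.3 CPM and day 0 libraries 91.9 ± 17.0 CPM, a ratio of means of 3.77. The log2 change was 1.91 (SE 0.70), with an adjusted p of 0.0842 in edgeR's quasi-likelihood test, so it was not called at an adjusted p under 0.05, although all 3 day 2 libraries exceeded all 3 day 0 libraries. Of the 95 miRNAs tested, 16.8% were called in this comparison. Day 6 replicate 3 belongs to neither age but enters the shared estimate of the spread. Without it the change was again 1.91 (SE 0.29) and was called (adjusted p = 0.00226). It was singled out by its low miR-33-5p level, so the smaller SE and this call are no added support for a rise. The adjusted p ranged from 0.00226 to 0.181 over the fits that left out 1 library. With all libraries DESeq2 called the day 2 change, at 1.81 (adjusted p = 0.0328).

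At day 4 miR-33-5p rose against day 0. Day 4 libraries averaged 553 ± 97.6 CPM and day 0 libraries 91.9 ± 17.0 CPM, a ratio of means of 6.02. On the log2 scale the rise was 2.58 (SE 0.71; edgeR adjusted p = 0.0191), the fourth highest change among the 95 miRNAs with TMM scaling, of which 29.5% were called. The call was kept in 11 of the 12 fits that left out 1 library. It ended without day 4 replicate 1, the highest of the day 4 libraries, at 2.33 (adjusted p = 0.0646). Without day 0 replicate 1 the change was 2.45 (adjusted p = 0.039).

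At day 6 the result depended on how the spread was estimated. Day 6 libraries averaged 648 ± 505 CPM and day 0 libraries 91.9 ± 17.0 CPM, a ratio of means of 7.05. The log2 change was 2.81 (SE 0.72; edgeR adjusted p = 0.0101), the third highest of 95 with TMM scaling, of which 42.1% were called, and the call was kept in each of the 12 fits that left out 1 library. Each of those fits took the spread from all ages together. With only the day 6 and day 0 libraries in the fit, the SE was 0.91 and the change of 2.64 was not called (adjusted p = 0.0812). The 2 groups overlapped, since day 6 replicate 3 was under the day 0 range. Without that library the change was 3.35 (SE 0.32; adjusted p = 6.97e-05). The other 2 day 6 libraries stood at 10.2 times the day 0 mean. The library was left out for its low miR-33-5p level. The larger change, smaller SE and lower adjusted p follow from that choice and are no support for a rise.

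Some muscle miRNAs were called in these comparisons too. Of 4 muscle miRNAs tested (miR-1-3p, miR-1a-3p, miR-1b and miR-133-3p), 1 rose and 0 fell at day 2, and 1 rose and 1 fell at day 4 and again at day 6, all against day 0. Over all 95 miRNAs, 16.8%, 29.5% and 42.1% were called at days 2, 4 and 6. With so few members, the counts do not set the muscle miRNAs apart from that share. miR-1-3p, the main muscle form, changed by -4.06 on the log2 scale at day 4 (SE 0.97; edgeR adjusted p = 0.00981) and by -2.64 at day 6 (SE 0.92; adjusted p = 0.0352). The rarer miR-1a-3p changed the other way, by 3.68 at day 2 (adjusted p = 0.0218), 3.14 at day 4 (adjusted p = 0.0246) and 4.13 at day 6 (adjusted p = 0.00611). It stood at 0, 2.59 and 3.57 CPM in the day 0 libraries, and forms of miR-1 can share reads. Summed over the 4, the muscle miRNAs ranged from 364 to 3377 CPM on day 0, 518 to 1290 CPM on day 2, 89.7 to 292 CPM on day 4 and 144 to 805 CPM on day 6. Neither arm of the gut miRNA miR-281 was called in these comparisons, and their sum ranged from 68.7 to 1545 CPM over the 12 libraries. The part of these tissues in the miR-33-5p result was not tested.

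The 3 comparisons with day 0 share its libraries and are not independent of each other. The steps between later ages gave smaller values. miR-33-5p stood at 476 to 663 CPM on day 4 and at 298 to 373 CPM on day 2, with a log2 change of 0.67 (SE 0.67; edgeR adjusted p = 0.989). Between day 6 and day 2 the log2 change was 0.90 (SE 0.67; adjusted p = 0.608), and 1.44 (SE 0.30; adjusted p = 0.069) without day 6 replicate 3. Between day 6 and day 4 it was 0.23 (SE 0.67; adjusted p = 0.955). This last value changed direction, to -0.16 and -0.12, without day 6 replicate 1 or 2, and was 0.76 without replicate 3.

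edgeR called 0 of the 95 miRNAs in each of these 3 steps, which is 0% of those tested. At an unadjusted p under 0.05 there were 5, 14 and 7 for day 4 against day 2, day 6 against day 2 and day 6 against day 4, without miR-33-5p among them. DESeq2 called 1, 4 and 0.

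**Figure D3:**
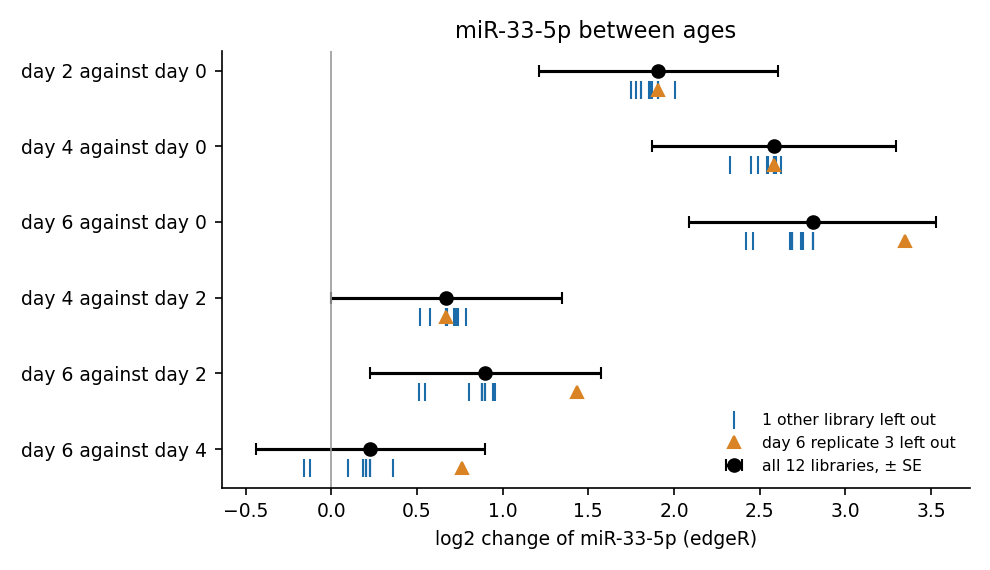
log2 change of miR-33-5p in the 6 comparisons of ages, later age over earlier. Black points with bars are the fit of all 12 libraries with its SE, blue ticks the fits without 1 other library, and triangles the fit without day 6 replicate 3, which put day 6 against day 0 at 3.35, against 2.81 with all 12 libraries.

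Over the 4 ages together, edgeR's quasi-likelihood test gave miR-33-5p an adjusted p of 0.0493, and called 26.3% of the 95 miRNAs. This was close to the threshold, and 11 of the 12 fits without 1 library did not call it, with adjusted p-values up to 0.128. The exception was the fit without day 6 replicate 3 (adjusted p = 0.000537). An exact permutation test of its log2 levels over the 369600 ways of assigning the 12 libraries to the 4 ages gave p = 0.11. Without day 6 replicate 3 the exact p was 6.49e-05, the smallest that test can give, because the ages then did not overlap. That library was singled out by its miR-33-5p level, so the values without it describe the other 11 libraries.

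The spread of miR-33-5p within day 6 was among the widest measured. The highest over the lowest day 6 level of miR-33-5p was 14.7, against 1.46 within day 0, 1.25 within day 2 and 1.39 within day 4. With 1 CPM added to each level, the day 6 ratio was 14.5, the second widest of the 95 miRNAs, whose median was 1.72. The wide spread was known before it was ranked, so the rank is a description and was not tested. Day 6 replicate 3 was below both other day 6 libraries by over 4-fold for 4 miRNAs, and above both by as much for 0.

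These 4 were miR-33-5p, miR-33a, miR-276-5p and miR-iab-4-5p, named here because of their values. miR-276-5p stood at 1653, 1555 and 174 CPM in day 6 replicates 1, 2 and 3. miR-iab-4-5p, of the Hox gene cluster in flies, stood at 14.3, 115 and 1.62 CPM. miR-8-3p stood at 727910, 618426 and 683264 CPM in the same libraries, and miR-1-3p at 65.1, 441 and 303 CPM, so replicate 3 lay between the other day 6 libraries for both. It did so for 30 of the 95 miRNAs, and was above both others for 24 and below both for 41. Of 7 tested forms of miRNAs abundant in insect fat body (miR-8, miR-14, miR-275 and miR-277), it was above both for 3, below both for 2 and between for 2. For the 4 muscle miRNAs and the 2 arms of miR-281 it lay between. The total of 1466326 counts in replicate 3 also lay between those of the other day 6 libraries, 1743141 and 627549. The part of tissue content or depth in its low miR-33-5p level was not tested.

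**Figure D4:**
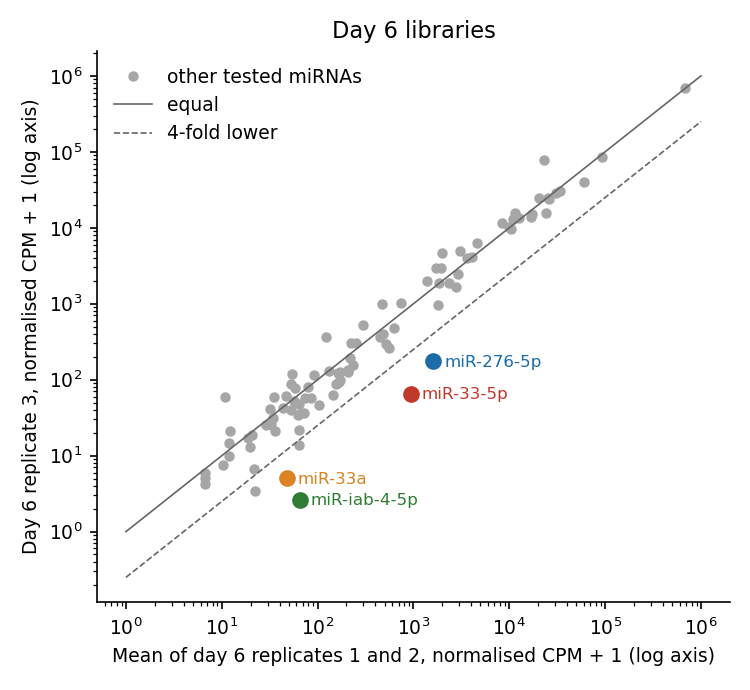
Level of each of the 95 tested miRNAs in day 6 replicate 3 (vertical) against the mean of day 6 replicates 1 and 2 (horizontal), as normalised CPM + 1 on log axes. The solid line marks equal levels and the dashed line a level 4-fold lower; miR-33-5p (64.7 CPM in replicate 3) lies well under the dashed line, with 3 other miRNAs named.

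The profile of miR-33-5p over the 12 libraries was compared with those of the other 94 miRNAs, by Pearson's r of log2(CPM + 1). These values describe likeness only, since the libraries share ages and depth. The highest were a limpet form of miR-750 (lgi-miR-750, r = 0.87), miR-33a (0.86), miR-9341, named in a bat (0.78), miR-276-5p (0.77) and miR-252a-5p, named in a sea star (0.76), and 2 were above 0.8. The median over the 94 was 0.09.

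Several of these are rare. The limpet form of miR-750 stood at 83.0, 42.2 and 12.9 CPM on day 6 and at 10.3 to 19.5 CPM on day 0, so it too was low in day 6 replicate 3. The major form of miR-750 stood at 1745, 1700 and 2931 CPM on day 6, with replicate 3 the highest. miR-252a-5p stood at 12.1 to 18.6 CPM on day 6 and at 2.16 to 6.05 CPM on day 0.

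Without day 6 replicate 3 the order changed, and 2 of the 5 highest were the same. The highest were then miR-8-5p (r = 0.92, and 0.74 with all 12 libraries), miR-995-3p (0.92, and 0.58), miR-252a-5p (0.91), miR-33a (0.88) and miR-252a-3p (0.88, and 0.70). Both miR-8-5p, the less abundant arm of miR-8, and miR-995-3p were at their later level in day 6 replicate 3, at 23578 and 524 CPM, against 10480 to 12903 and 58.4 to 68.7 CPM on day 0. The most opposite profiles with all libraries were those of miR-71-5p (r = -0.91), miR-92a-3p (-0.76) and a minor form of miR-100-5p named in an aphid (-0.74). miR-71-5p varied little, at 3189, 2933 and 4953 CPM on day 6 and 4200 to 5650 CPM on day 0.

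**Figure D5:**
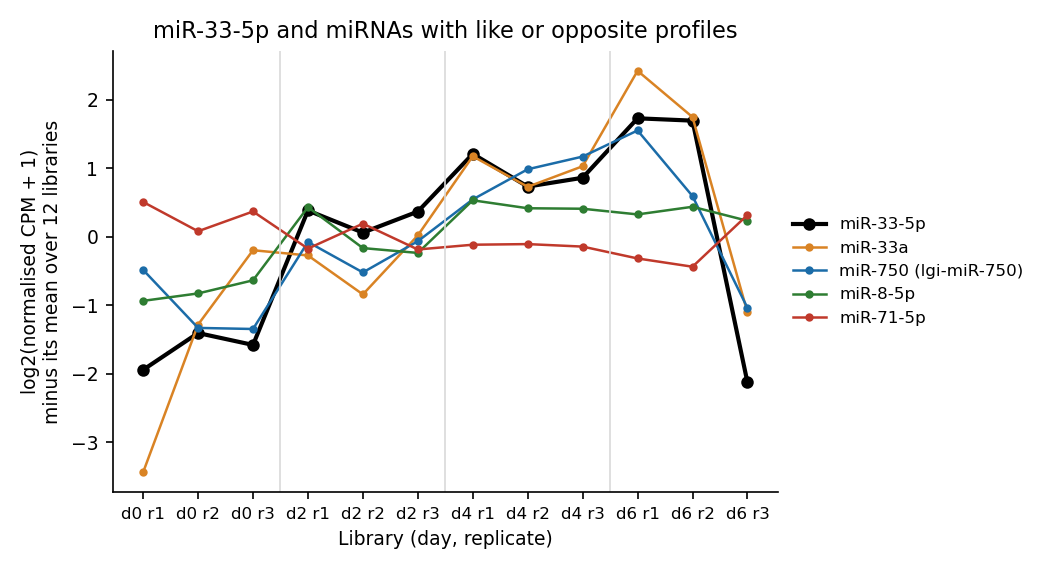
log2(normalised CPM + 1) minus its mean over the 12 libraries for miR-33-5p, miR-33a, lgi-miR-750, miR-8-5p and miR-71-5p, by library (d, day; r, replicate). The limpet form of miR-750 and both miR-33 profiles are low in day 6 replicate 3, while miR-8-5p keeps its later level and miR-71-5p runs the other way.

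miR-33-5p was set beside other miRNAs with reported roles in insect metabolism, which came to 15 forms tested, itself included. Of these, 1 rose and 2 fell at day 2, 3 rose and 3 fell at day 4, and 5 rose and 3 fell at day 6, all against day 0. Their median log2 changes were -0.06, -0.03 and -0.02, beside 0.04, -0.02 and 0.08 for all 95 miRNAs. Among all 95, the risen and fallen were 5 and 11 at day 2, 10 and 18 at day 4, and 16 and 24 at day 6. Forms of a miRNA can share reads, so the 15 are not independent.

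The rises were those of miR-33 and miR-8. miR-8-3p, which promotes insulin signalling and growth through the fat body in flies, rose by 1.68 at day 6 against day 0 (SE 0.42; edgeR adjusted p = 0.0099), and miR-8-5p rose by 1.13 (SE 0.24; adjusted p = 0.00507). A form of miR-8-3p named in a planarian (miR-8a-3p) rose by 1.57, and miR-33a by 2.75. The miR-33-5p change, 2.81 (SE 0.72), lay within the SEs of that of miR-33a (SE 0.88). Without day 0 replicate 1 the rises were smaller and were called again. They were then 1.26 for miR-8-3p, 1.06 for miR-8-5p, 1.15 for miR-8a-3p, 2.42 for miR-33a and 2.68 for miR-33-5p. With total counts for scaling, miR-33a was not called (2.32; edgeR adjusted p = 0.0583), while the other rises were. As given above, miR-33-5p was not called with only those ages in the fit. Day 6 replicate 3 did not share the rise of miR-33-5p or miR-33a, at 64.7 and 4.04 CPM.

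The falls were those of miR-278-3p, which affects energy balance in flies, of let-7-5p, which acts in the timing of metamorphosis in flies, and of a minor form of miR-8-3p. miR-278-3p changed by -2.41 (SE 0.47; edgeR adjusted p = 0.00295) and let-7-5p by -0.86 (SE 0.26; adjusted p = 0.0209) at day 6. Without day 0 replicate 1 these were -1.54 and -0.59 and were called again. The minor form of miR-8-3p stood at 2071 CPM in day 0 replicate 1, against 115 and 87.4 CPM in the other day 0 libraries, and its change of -4.53 became -1.64 without that library.

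The others were not called at day 6. miR-14-3p, which lowers fat storage in flies, had a log2 change of 1.08 (edgeR adjusted p = 0.217), with 77522 CPM in day 6 replicate 3 and 25009 and 20727 CPM in the other day 6 libraries. miR-277-3p, which acts on amino acid breakdown in flies, had 0.71 (adjusted p = 0.178) and miR-305-5p -0.02 (adjusted p = 0.936). miR-275-3p, needed for blood digestion and egg development in mosquitoes, had -1.06 (adjusted p = 0.144), and 0.24 without day 0 replicate 1. Day 6 replicate 3 was above both other day 6 libraries for 4 of the 15 and below both for 6, miR-33-5p among them. Among all 95 miRNAs it was above both for 24 and below both for 41, so the 15 did not stand apart in this.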

How the data were processed

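Small RNA was counted in 12 fat body libraries. Per the labels' protocols, TRIzol was used for extraction and the libraries were made by Illumina's standard procedure. The authors deposited raw counts per mature miRNA name. Aligner and miRNA release: not given in the sources used here. Columns were matched to samples by the day and number in the sample descriptions, with 0 columns left over. Replicates are numbered by the sample titles; the column names number the same libraries 1, 3 and 4 on day 0 and 2, 3 and 4 at the later ages. No sequences are printed, since none is in the files used here.

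Rows with at least 120 counts (1513 of 5500 with counts) were joined, because the same reads stood under names of several species. Rows of a miRNA number agreeing within 25% plus 5 counts in every library, or of other numbers within 5% plus 3 counts, gave 154 profiles. Profiles that were a constant share (within a factor of 1.5 or 2.5 counting SDs, 1 library allowed outside) of a more abundant one of the same miRNA were joined too, leaving 101 groups, 79 with an arthropod name. lgi-miR-33-5p stands for 42 names.

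The test was edgeR 4.0.16 (R 4.3.3) (glmQLFit, glmQLFTest) on the 12 libraries, modelled by age, TMM factors, a filterByExpr minimum count of 10, Benjamini-Hochberg adjustment over 95 miRNAs and a threshold of 0.05. An SE is the log2 change divided by the square root of F. In data simulated for day 6 against day 0 (20 sets of 101 miRNAs, 30 of them changed), it called 5.67%, 42.9% and 73.6% of log2 changes of size 1, 2 and 3, and 0.423% of unchanged miRNAs. The simulated data took the spread from its trend with abundance and held no outlying library such as day 0 replicate 1. These rates may therefore differ from those in the real data. Likeness used a pseudocount of 1. The alternatives tried were DESeq2 1.42.0, RLE factors or total counts for scaling, no filter, a replicate block, each library left out, only the ages compared, all rows, other miR-33 rows and leaving out miR-8-3p. SciPy 1.17.1, pandas 2.3.3, NumPy 2.4.6 and matplotlib 3.10.9 (Python 3.11.15) served for the rest. The miRNA, the lists and the tests were chosen with earlier results of these data known. Named miRNAs were the miR-33 rows, the 5 most and 3 least alike in profile, and the metabolic and tissue lists; others are said to be named for their values.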

Additional observations from a re-analysis of the deposited data

How the results depend on the processing

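The rise of miR-33-5p at day 4 against day 0 was called in 10 of the 11 alternatives that kept all libraries of both ages (2.27 to 2.95 on the log2 scale) and ranged from 2.33 to 2.62 with 1 library left out. At day 6 against day 0, 9 of 11 alternatives called it, with the exception of the fit of those ages alone (2.64) and of 1 block described below, and it ranged from 2.42 to 3.35 with 1 library left out. At day 2 against day 0, DESeq2 called it (1.81), as 1 of 11 alternatives, and the range with 1 library left out was 1.75 to 2.01. Day 6 against day 4 ranged from -0.16 (without day 6 replicate 1), with -0.12 without replicate 2, to 0.76. The test over the 4 ages lost its call with total counts (adjusted p = 0.0921), without the filter (0.0695) and with all rows of the table (0.0508), and ranged from 0.000537 to 0.128 with 1 library left out; the exact permutation p ranged from 6.49e-05 to 0.246. The day 6 ratio of highest to lowest was 1.02 without replicate 3 and up to 14.7 without another. The causes were not tested.

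Replicate numbers of the titles showed no clear pairing of the libraries, though deviations from means of 3 libraries cannot exclude one. Of 18 same-numbered pairs, 6 had deviations correlated above 0.1 (range -0.68 to 0.35). Differently numbered pairs ranged from -0.57 to 0.51, and 3 of 12 libraries correlated best with their own number. With the replicate block on these numbers, the adjusted p over the 4 ages was 0.116 and the miRNAs called over the 4 ages numbered 16, against 25 without it; the calls at days 4 and 6 against day 0 were kept (2.55 and 2.61). In 3 of the 18 pairs, those of day 0 replicate 1, the column names give different numbers. By the column names, 6 of 15 pairs were above 0.1 (range -0.68 to 0.35). A replicate block on those numbers, added after seeing the data, leaves day 0 replicate 1 alone in its block, so that it adds nothing to the comparisons of ages. It gave 2.27 at day 4 (adjusted p = 0.06) and 2.28 at day 6 (adjusted p = 0.0605) against day 0 and an adjusted p of 0.202 over the 4 ages, none of them called, with 33 miRNAs called over the ages.

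The total of miRNAs called moved with the fit: 0 to 28 (16 with all libraries) at day 2 against day 0, 13 to 35 (28) at day 4 and 13 to 48 (40) at day 6, the lowest with only the ages compared; 15 to 38 (25) over the 4 ages; and up to 5, 10 and 1 (0) for day 4 against day 2, day 6 against day 2 and day 6 against day 4. With all rows unjoined it was 232, 346 and 426 at days 2, 4 and 6 against day 0 and 347 over the ages. With total counts the median log2 change of all miRNAs at day 6 was -0.33, against 0.08 with TMM, 8 rose and 26 fell, and miR-33-5p stood at 2.42. dme-miR-33-5p, the planned second row, held 0 counts and gave no value; the honey bee and hawkmoth rows, added after seeing the data, gave 3.00 and 2.93 at day 6. Low counts limit day 0 replicate 1 most, and it also held miRNAs with Lepidoptera names that had no counts elsewhere.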

Other observations

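The arms of miR-276, named here after their values were seen, parted in day 6 replicate 3, the library in which miR-33-5p was low. miR-276-5p stood at 174 CPM there, against 1653 and 1555 CPM in the other day 6 libraries and 405 to 1133 CPM on day 0. miR-276-3p, the abundant arm, stood at 85292 CPM in that library, against 103377 and 83727 CPM in the other day 6 libraries. The other way round, miR-14-3p was higher in that library than in either other day 6 library, at 77522 CPM against 25009 and 20727 CPM. No test was made of these values.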
